A study of Mus musculus with 8 samples.

Results

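The genes described here are 37 genes of glucose transport, glycolysis, lactate handling, pyruvate entry into mitochondria and the hypoxia response, chosen by name out of the 21755 genes named in the count tables. They were read in CD45+ leukocytes from full-thickness wounds on the back of male mice, a C57BL/6J stock in the methods and C57BL/6 in the labels, by single-cell RNA sequencing on days 1, 3, 5 and 7 after wounding. Diabetic mice had received streptozotocin, a toxin of insulin-producing beta cells, at 120 mg per kg at 4 weeks of age, and were taken on once their blood glucose was 16.5 mmol/L or more. Control mice were wounded without diabetes, and the sources used here give neither their age nor a vehicle injection. Each of the 8 libraries pooled the wounds of 5 mice of 1 group and 1 day. No group and day was repeated, so that no day could be tested alone and the 4 days served as the replicates of each group.

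Glucose enters cells through facilitative transporters of the Slc2a family, is trapped by hexokinases and is broken down to pyruvate, which lactate dehydrogenase turns into lactate for export by monocarboxylate transporters, or which enters mitochondria through the pyruvate carrier and pyruvate dehydrogenase. Hypoxia-inducible factor 1, whose oxygen-sensitive subunit is encoded by Hif1a, is known to activate many of these genes when oxygen is scarce, through sites that hold the letters ACGTG. Neutrophils are known to rely on glycolysis and to hold few mitochondria, and macrophages are known to use both routes to a degree that varies with their activation.

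Of the 37 members, 36 had an entry in the RefSeq promoter table used here (GRCm38.p6, windows of 250 bases before to 50 bases after each annotated start). Of those 36, 19 (52.8%) held ACGTG, searched on both strands, in at least 1 window, against 21.8% of the 27025 genes in the table. Counted by window, 23 of 52 member windows (44.2%) held it, against 19.6% of all 32851 windows. The promoters of 5 members that hold the letters, and whose levels are followed through the text, are shown to let the letters be seen in place. Where a gene had more than 1 window, the window with the most copies is shown, and only 1 of the 2 windows of Ldha held them. ACGTG or its reverse complement CACGT is in capitals, read 5′ to 3′ on the strand of the gene.
Egln3 (chr12:54203825-54204124, minus strand): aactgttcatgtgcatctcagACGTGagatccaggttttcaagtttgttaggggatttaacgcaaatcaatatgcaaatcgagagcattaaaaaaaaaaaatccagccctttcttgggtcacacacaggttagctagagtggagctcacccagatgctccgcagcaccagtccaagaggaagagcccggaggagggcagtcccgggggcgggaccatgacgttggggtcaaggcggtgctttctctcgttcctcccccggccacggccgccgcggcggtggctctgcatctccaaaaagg
Bnip3 (chr7:138909457-138909756, minus strand): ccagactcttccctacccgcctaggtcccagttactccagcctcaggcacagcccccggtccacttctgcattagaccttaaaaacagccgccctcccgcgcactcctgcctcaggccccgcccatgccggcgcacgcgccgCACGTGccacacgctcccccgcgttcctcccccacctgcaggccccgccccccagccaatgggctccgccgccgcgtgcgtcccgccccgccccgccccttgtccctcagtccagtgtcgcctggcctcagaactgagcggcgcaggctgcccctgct
Slc2a1 (chr4:119108495-119108794, plus strand): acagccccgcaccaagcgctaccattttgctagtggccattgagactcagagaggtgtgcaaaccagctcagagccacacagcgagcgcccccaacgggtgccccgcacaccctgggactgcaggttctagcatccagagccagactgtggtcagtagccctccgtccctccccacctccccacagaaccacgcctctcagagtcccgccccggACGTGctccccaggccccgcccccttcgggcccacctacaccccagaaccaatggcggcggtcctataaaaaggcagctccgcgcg
Slc16a3 (chr11:120948817-120949116, plus strand): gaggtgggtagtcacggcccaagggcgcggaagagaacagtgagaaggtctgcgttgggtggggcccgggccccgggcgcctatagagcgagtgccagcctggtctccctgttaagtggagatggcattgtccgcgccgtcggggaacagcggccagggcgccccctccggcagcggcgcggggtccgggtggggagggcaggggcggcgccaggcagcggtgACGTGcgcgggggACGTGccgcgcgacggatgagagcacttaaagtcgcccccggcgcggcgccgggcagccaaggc
Ldha (chr7:46845554-46845853, plus strand): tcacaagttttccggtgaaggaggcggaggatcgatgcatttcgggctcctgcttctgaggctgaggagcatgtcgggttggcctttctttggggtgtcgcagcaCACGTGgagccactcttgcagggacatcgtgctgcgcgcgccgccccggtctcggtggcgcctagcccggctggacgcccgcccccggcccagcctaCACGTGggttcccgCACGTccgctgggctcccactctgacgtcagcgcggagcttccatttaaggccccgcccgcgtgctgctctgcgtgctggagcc
The first base of the motif lay at -229 from the start in Egln3, at -36 in Slc2a1, at -27 and -14 in Slc16a3, at -108 (CACGT overlapping ACGTG) in Bnip3, and at -145, -48 and -34 in Ldha, where the first 2 places again hold both overlapping readings. A match describes these letters in the window and does not show that a factor binds there. Slc2a6, Tpi1, Eno1 and Pdk1 held no ACGTG in their windows, which says only that these letters are not within 300 bases here.

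After removal of cells with 200 or fewer genes or with 20% or more mitochondrial UMIs, 35158 of 38959 barcodes were kept, 3266 to 5436 per library, from libraries of 19236522 to 33842509 UMIs. The control day 5 library stood apart, with 28.6% of its barcodes removed against 1 to 10.8% elsewhere, and with a median of 8234 UMIs per kept cell against 2575 to 5219. Clusters were built without the member genes and were named from marker genes into neutrophil-like (262 to 2687 cells per library), monocyte-like (53 to 1713), macrophage-like (76 to 2250), dendritic-like (107 to 602) and T cell-like cells (103 to 672). An osteoclast-like cluster of 378 cells, led by Ctsk, Atp6v0d2 and Acp5, had at least 20 cells in 4 libraries, and NK cell-like cells had as many in 6. Ptprc, which encodes CD45, ranged over the libraries from 405 to 1259 UMIs per 1000000 UMIs in the neutrophil-, monocyte- and macrophage-like cells. Levels below are CPM, the UMIs of the gene per 1000000 UMIs of the class in that library, given in the order of days 1, 3, 5 and 7, and they compare libraries or classes for 1 gene and never 1 gene with another.

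Among the glucose transporters, Slc2a3 and Slc2a6 were far higher in neutrophil-like than in macrophage-like cells. Slc2a3, which encodes the high-affinity transporter GLUT3, was at 271, 192, 285 and 102 CPM in the diabetic and 339, 507, 167 and 119 in the control neutrophil-like cells. In macrophage-like cells Slc2a3 was at 15.3, 12.8, 12.3 and 7.98 in the diabetic and 31.6, 16.6, 3.72 and 13.2 in the control libraries. The neutrophil-like level was the higher of the pair in 8 of 8 libraries and the ranges did not overlap, with a median ratio of 16.3 (9.02 to 45.0 over libraries). Slc2a6, which encodes GLUT6, a transporter of the same family known to be induced in inflammatory macrophages, was at 316, 278, 263 and 147 in the diabetic and 298, 188, 183 and 110.0 in the control neutrophil-like cells, and its median ratio to macrophage-like cells was 13.1 (4.12 to 33.0). Slc2a1, which encodes the widely used transporter GLUT1, differed less between these classes, with a median ratio of 1.57 (1.24 to 2.66), although it too was higher in 8 of 8 libraries.

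Slc2a8, which encodes the intracellular transporter GLUT8, went the other way and was scarce. It was at 0.718, 1.15, 0.818 and 4.22 CPM in the diabetic and 0.663, 1.48, 2.0 and 8.21 in the control neutrophil-like cells, against 9.19, 14.0, 9.07 and 9.48 and 6.78, 11.4, 10.9 and 10.7 in macrophage-like cells. With counts under 3 set to 3, its median ratio was 0.112 (0.0781 to 0.765), and the day 7 libraries of both groups came nearest to the macrophage-like level. Summed over the 4 transporters, neutrophil-like cells held 369.8 to 902 CPM (median 662), against 104 to 164 (median 143) in macrophage-like, 151 to 235 in monocyte-like, 107 to 196 in dendritic-like, 126 to 193 in T cell-like, 146 to 239 in NK cell-like and 72.6 to 99.4 in osteoclast-like cells. Mast cell-like cells, with 23 to 25 cells in each of the 4 libraries that held at least 20, had 353.7 to 1149 (median 438), which overlaps the neutrophil-like range.

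Slc16a3, which encodes the lactate exporter MCT4, was the third member that stood at least 2-fold higher in neutrophil-like than macrophage-like cells in every library. Its level was 338, 368, 319.8 and 174 CPM in the diabetic and 317, 710.3, 341 and 292 in the control neutrophil-like cells. In macrophage-like cells it was 46.0, 48.3, 50.5 and 48.8, and 52.0, 65.1, 26.3 and 69.3. The classes did not overlap, and the median ratio was 6.82 (3.57 to 12.9). Slc16a1, which encodes the related transporter MCT1, was lower in neutrophil-like cells in 7 of 8 libraries, with a median ratio of 0.243 (0.131 to 1.05). Ldhb, the heart-type lactate dehydrogenase subunit, was also lower in the 7 libraries where it could be compared (median ratio 0.239, 0.0842 to 0.962), while Ldha, the muscle-type subunit, had a ratio near 1 (1.1, 0.713 to 1.32).

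Of the hypoxia genes, Egln3, which encodes a prolyl hydroxylase that marks hypoxia-inducible factor for destruction and is itself a target of that factor, was higher in neutrophil-like cells in 8 of 8 libraries, with a median ratio of 3.50 (1.89 to 6.91). Hif1a itself had a median ratio of 1.51 (1.05 to 2.27), and Bnip3, a mitophagy receptor, of 1.25 (0.863 to 2.24). Pfkfb3, whose product raises fructose 2,6-bisphosphate and so drives glycolysis, had a ratio of 1.75 (1.07 to 2.23). Lower in neutrophil-like cells in all libraries compared were also Hk2, the inducible hexokinase (0.491, 0.263 to 0.789), Pdha1, the catalytic subunit of pyruvate dehydrogenase (0.494, 0.206 to 0.821), and Pfkm, a phosphofructokinase subunit with 519 UMIs in all cells (0.350, 0.0781 to 0.852 over 7 libraries).

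**Figure D1:**
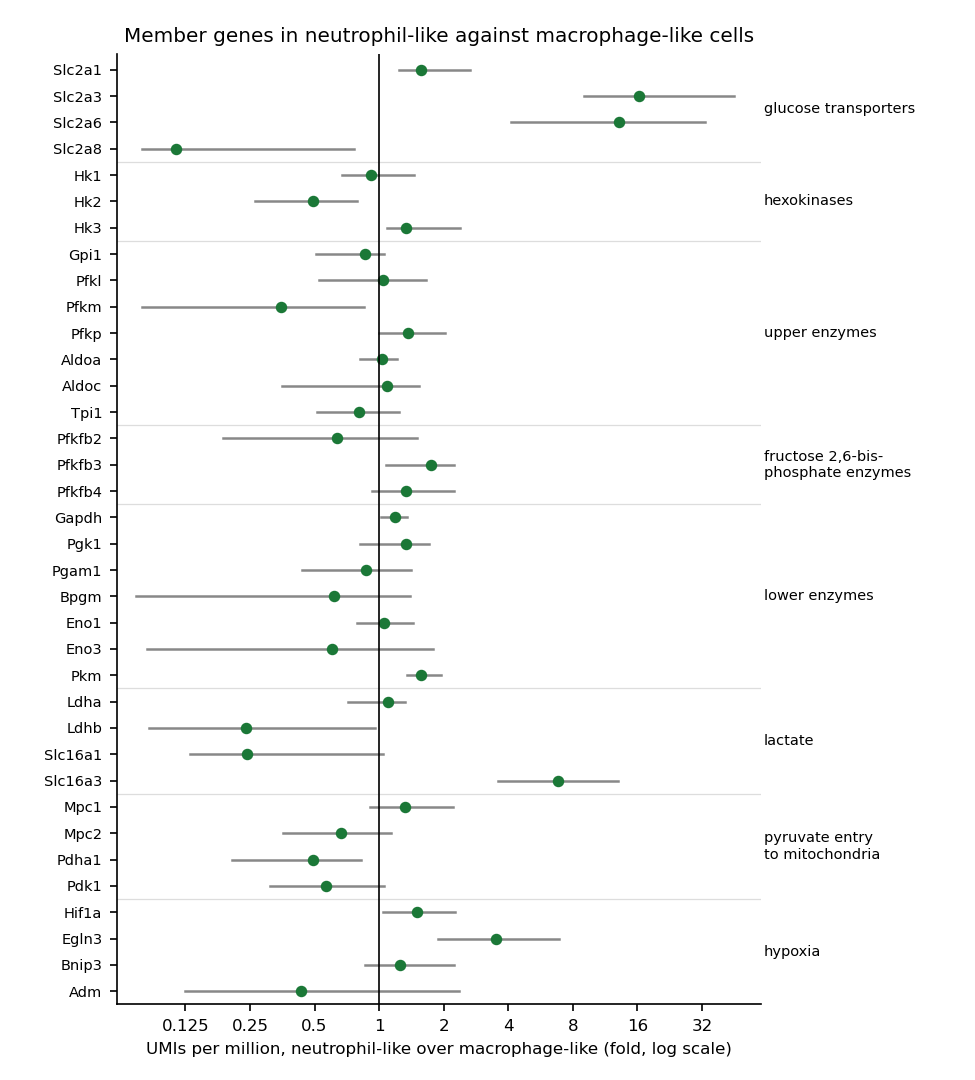
Ratio of CPM in neutrophil-like over macrophage-like cells for each member (log axis), grouped by role, with the median over libraries as a dot and the lowest and highest library as a line. Slc2a3, Slc2a6 and Slc16a3 sit to the right of a 2-fold difference over their whole range, while Slc2a8, Hk2 and Pdha1 sit to the left of 1.

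At the 2-fold mark in every library, 3 of the 36 members compared were higher in neutrophil-like cells and 0 were lower, beside 2.27% and 0.618% of the 12455 genes compared in the same way. The median log2 ratio was 0.07 over the members and -0.68 over all genes. These class contrasts describe libraries that each give 1 value per class and carry no test. Neutrophil transcripts were also counted in the other classes: the 10 neutrophil markers summed to 354 to 3628 CPM inside macrophage-like cells, against 16746 to 67872 inside neutrophil-like cells, and the part this plays in the low Slc2a3 and Slc2a6 levels of macrophage-like cells was not tested. In turn the 11 macrophage markers summed to 573 to 11979 CPM inside neutrophil-like cells, highest on day 7 in both groups. Inside macrophage-like cells they summed to 16347 to 26669. The part of macrophage transcripts in the ratios of Slc2a8 and other members was not tested. Summed over all cells of a library, Slc2a3 was at 111, 67.9, 96.0 and 29.3 in the diabetic and 149.9, 144, 10.3 and 33.9 in the control libraries. Both the level within neutrophil-like cells, given above, and their share of all cells enter these sums, and that share was 51.5%, 49.4%, 46.0% and 21.2% in the diabetic and 60.1%, 41.5%, 8.02% and 23.6% in the control libraries.

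The 19 glycolytic enzymes, summed, differed between cell classes in another order. They are the hexokinases, the upper enzymes (Gpi1 to Tpi1), the lower enzymes (Gapdh to Pkm), and Ldha and Ldhb. They made up 5472 to 6985 CPM (median 5999) in monocyte-like cells and 6449 to 6857 (median 6652) in the 4 libraries with osteoclast-like cells. In neutrophil-like cells the sum was 3592, 4053, 4361 and 4523 in the diabetic and 4199, 5070.3, 4240 and 4510 in the control libraries, and in macrophage-like cells 3187, 3371, 4138 and 3484, and 4295, 4316, 3685 and 3810. Neutrophil-like cells were above macrophage-like cells in 7 of 8 libraries but only by a median of 1.16-fold (0.978 to 1.30), and the ranges overlapped. Medians were 3727 in dendritic-like, 4149 in T cell-like and 3742 in NK cell-like cells. By contrast, the 79 nuclear genes of oxidative phosphorylation, fixed as a list of the competing pathway, summed to 2550 to 10503 CPM in neutrophil-like cells and 9189 to 12228 in macrophage-like cells, a median ratio of 0.444 (0.217 to 0.98), and to 26753 to 29756 in osteoclast-like cells.

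**Figure D2:**
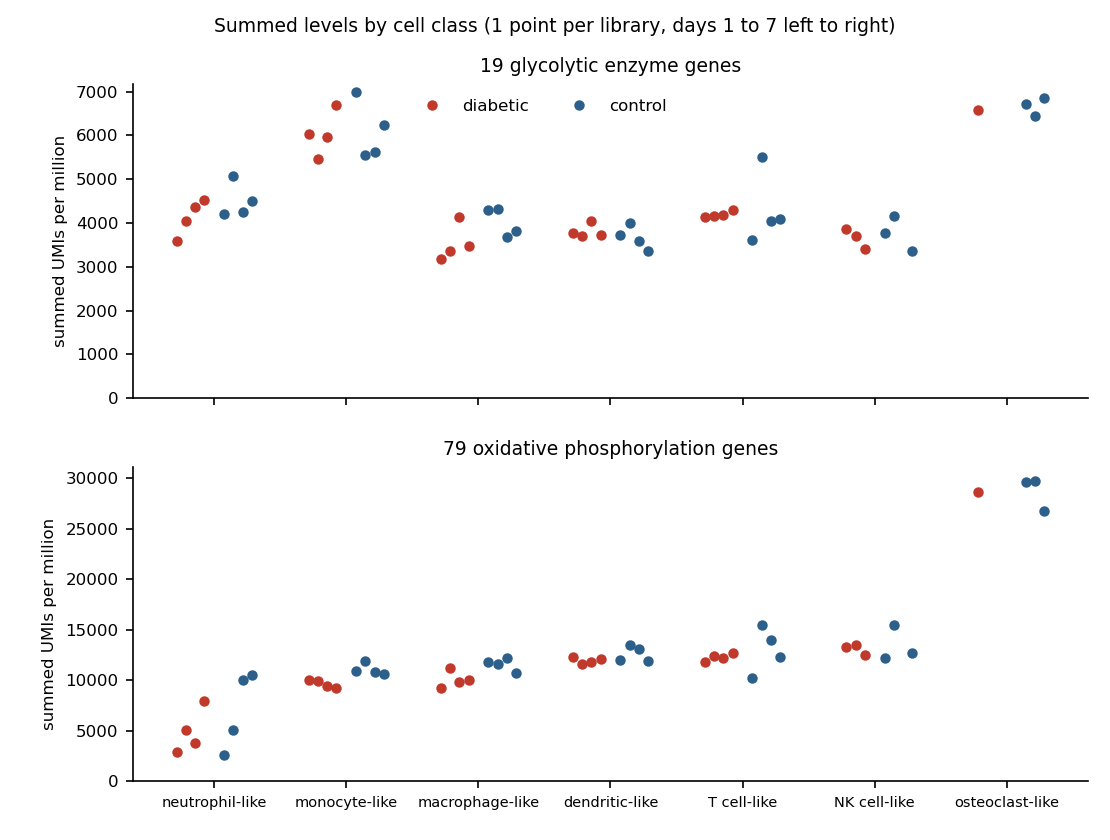
CPM summed over the 19 glycolytic enzymes (top) and the 79 oxidative phosphorylation genes (bottom) by cell class, 1 point per library, red for diabetic and blue for control, with days running from left to right within each colour. The enzyme sum is highest in monocyte- and osteoclast-like cells, while the oxidative phosphorylation sum of neutrophil-like cells starts at 2550 to 2897 on day 1 and reaches 7970 to 10503 on day 7.

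Within the enzymes the sums over the later, ATP-yielding steps and over the entry step diverged. Summed, the 7 lower enzymes, Gapdh to Pkm, had a median neutrophil-like to macrophage-like ratio of 1.30 (1.11 to 1.5) and were higher in 8 of 8 libraries, led by Pkm, pyruvate kinase (1.57, 1.36 to 1.93), and Gapdh (1.19, 1.02 to 1.35). The less abundant Pgam1 (0.870), Eno3 (0.601) and Bpgm (0.614) among them went the other way at the median and were lower in 7, 6 and 5 of 8 libraries. The 3 hexokinases together had a ratio of 0.717 (0.611 to 0.841) and were lower in 8 of 8, since Hk2 was lower while Hk3, a hexokinase of myeloid cells, was higher (1.34, 1.08 to 2.38) and Hk1 was on both sides of 1 (0.921, 0.674 to 1.46). The 7 upper enzymes were level on balance, with a ratio of 1.00 (0.811 to 1.18), among them Aldoa, the main aldolase (1.03, 0.811 to 1.21), and Gpi1, glucose-6-phosphate isomerase (0.857, 0.509 to 1.05). Pyruvate entry genes were lower (0.619, 0.503 to 1.02), in 6 of 8 libraries. The median log2 ratio over all genes in this contrast was -0.68, so that a ratio below 1 is not particular to the hexokinases or the pyruvate entry genes. Gapdh, Pkm, Aldoa, Ldha and Eno1 have near-identical processed copies in the mouse genome, so that counting could split their reads.

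Monocyte-like cells held a larger enzyme sum than macrophage-like cells, and more of 3 of the 4 hypoxia genes. In 8 of 8 libraries Pgk1, phosphoglycerate kinase, was higher by a median of 2.58-fold (1.41 to 4.07), Eno1, the main enolase, by 2.16-fold (1.57 to 2.64), Tpi1, triose phosphate isomerase, by 1.87-fold (1.09 to 2.45) and Ldha by 1.53-fold (1.30 to 2.45). Hif1a was higher by 2.03-fold (1.25 to 2.46), Bnip3 by 3.04-fold (1.08 to 5.69) and Slc16a3 by 2.45-fold (1.80 to 3.24), again in 8 of 8. Egln3 was higher in 7 of 8 (2.58, 0.905 to 4.15), while Adm, which encodes adrenomedullin, was lower in 5 of the 6 libraries compared (0.433, 0.103 to 1.91). Slc2a8 (0.322), Hk2 (0.808) and Eno3, the muscle enolase (0.442), were lower in 8 of 8. None of the 36 members was 2-fold higher or lower in every library, a mark that 0.344% and 0.533% of 12197 genes reached, and the median log2 ratio was 0.32 over members and -0.15 over all genes. The enzyme sum was 1.62-fold higher (1.29 to 1.92).

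In osteoclast-like cells, multinucleate bone-resorbing cells being the type that their marker genes are known from, the members differed both ways from the other macrophage-like cells of the same library. Pdha1 was at 123 CPM in the diabetic day 3 library and at 107, 117 and 112 in the control libraries of days 3, 5 and 7, a median of 2.80-fold over macrophage-like cells (2.62 to 3.27). Aldoc, the brain-type aldolase, was 2.23-fold higher (2.01 to 2.92), and Pfkfb3 was lower in all 4 libraries (ratio 0.286, 0.246 to 0.40). The Aldoc levels rested on few UMIs in osteoclast-like cells, with 7 in each day 3 library, 107 in control day 5 and 16 in control day 7. Pgk1 (2.43), Eno1 (2.28), Pdk1, a kinase that inhibits pyruvate dehydrogenase (2.24), Ldha (2.09), Mpc2, a subunit of the mitochondrial pyruvate carrier (1.95), and Aldoa (1.94) were higher in 4 of 4, while Slc2a1 (0.549), Hif1a (0.543) and Egln3 (0.511) were lower in 4 of 4. Within the same roles other members went elsewhere: Slc2a3 was higher in 3 of 4 libraries (1.16, 0.552 to 1.31), and Slc2a6 (0.670, 0.396 to 1.03) and Hk3 (0.357, 0.186 to 1.36) were lower in 3 of 4. At the 2-fold mark in all 4 libraries, 2 of 36 members were higher and 1 was lower, beside 8.93% and 4.21% of 11542 genes. Both shares are near those of all genes. The median log2 ratio was 0.35 over the members and 0.29 over all genes, so that the members as a set were near all genes here too. Its cells were deep, with 22789 UMIs at the median, 3.45 times the median of their own libraries, and the part of depth in these ratios was not tested.

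Among lymphoid and dendritic clusters, which again are described without a test, a few members picked out subsets. In the dendritic-like cluster led by Fscn1, Ccl22 and Ccr7, genes of dendritic cells that migrate to lymph nodes, Pfkfb3 was at a median of 612 CPM (421 to 951 over libraries), against 119 (40.7 to 136) in the cluster led by Cd209a. Eno3 was at 263 (204 to 375) against 18.5 (11.6 to 34.9), so that the ranges of both genes did not overlap. Ldha went the other way, with medians of 277 and 524. In the T cell-like cluster led by Trdc, Il17f and Il17a, genes of interleukin 17-producing gamma delta T cells, Hk2 was at a median of 274 (213 to 441) against 81.9 (40.0 to 98.3) where Ctla4 and Trac led, again without overlap, while Hif1a overlapped (443 and 555). Bpgm, which makes bisphosphoglycerate from an intermediate of the pathway, ranged from 9.71 to 25.4 in T cell-like cells against 0.663 to 3.65 in neutrophil-like cells. Among macrophage-like clusters, the one led by Retnla, Lyve1 and Cd163 held less Aldoa (429, 376 to 500) than those led by Igf1 (725, 598 to 918) and by Ms4a7 and Gpnmb (815, 485 to 1007), with Aldoa ranges that overlapped those of the latter only.

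The first comparison of the design asked whether diabetes shifted these genes over all days. Of the members tested with edgeR, 0 of 35 in neutrophil-like, 0 of 36 in monocyte-like and 0 of 36 in macrophage-like cells differed between diabetic and control libraries after Benjamini-Hochberg adjustment over all genes, beside 0.046%, 0.0383% and 0.00911% of all genes tested in these classes. At an unadjusted p under 0.05 there were 3, 5 and 7 members, beside 8.73%, 7.71% and 8.75% of all genes, so that the neutrophil-like count is near the background. DESeq2 called 0, 0 and 1 members, beside 0.35%, 0.268% and 0.492% of all genes. The median log2 difference of the members was -0.06, 0.03 and -0.06, against -0.015, 0.0054 and -0.0018 over all genes. With 4 libraries a group and 1 per day the test had 3 residual degrees of freedom, so that a missed threshold does not show equal levels.

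The member nearest to the threshold in monocyte-like and macrophage-like cells was Slc2a6. In macrophage-like cells it was at 21.4, 39.1, 22.7 and 35.7 CPM in the diabetic and 9.04, 12.6, 9.94 and 21.0 in the control libraries. The diabetic library was the higher one on each of the 4 days and the groups did not overlap, though the lowest diabetic and the highest control value were close, with a log2 difference of 1.17 ± 0.206 (SE; edgeR adjusted p = 0.150). In monocyte-like cells it was at 83.2, 59.1, 52.1 and 66.8 against 52.5, 32.3, 21.6 and 24.1. The order held again on each day, the groups overlapped by the control day 1 library alone, and the log2 difference was 1.01 ± 0.174 (edgeR adjusted p = 0.103). In neutrophil-like cells the values given above were higher in the diabetic library of each day too, but the log2 difference was 0.52 ± 0.229 (edgeR adjusted p = 0.551). Dendritic-like cells, which were not tested, had 125, 70.7, 77.8 and 85.1 against 100.2, 34.8, 38.0 and 48.6.

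The size of the Slc2a6 difference varied by day, and the intervals given here cover counting error but not differences between mice. In monocyte-like cells the ratio of diabetic to control was 1.585 (95% interval 1.41 to 1.78) on day 1, 1.83 (1.49 to 2.25) on day 3, 2.41 (1.55 to 3.96) on day 5 and 2.77 (1.49 to 5.72) on day 7. In macrophage-like cells it was 2.37 on day 1, where the 76 and 87 cells left it between 0.603 and 11.0, then 3.10 (2.29 to 4.27), 2.28 (1.54 to 3.30) and 1.70 (1.44 to 2.0). In neutrophil-like cells the day 1 ratio of 1.06 (0.999 to 1.12) was the smallest of the 4, against 1.48 (1.37 to 1.603) on day 3. Intervals of single days thus did not all overlap in neutrophil- and macrophage-like cells. Whether Slc2a6 in monocyte- and macrophage-like cells passed the threshold depended on the setting: it was called in 3 of 19 alternatives in monocyte-like cells (edgeR or DESeq2 adjusted p from 5.5e-05 to 0.916), among them without the diabetic day 3 (0.0439) or the control day 3 library (0.0150), and in 7 of 20 in macrophage-like cells (9.4e-05 to 0.959), among them DESeq2 (0.00730) and edgeR without the diabetic day 5 (0.0254), diabetic day 7 (0.0218), control day 5 (0.0459) or control day 7 library (0.0153). Its direction was the same in all of these. Neutrophil markers inside macrophage-like cells summed to 3628, 2708, 1675 and 1371 in the diabetic and 3189.9, 1692, 354 and 1740 in the control libraries, and inside monocyte-like cells to 3867, 2822, 1944 and 1381, and 3631, 1851, 618 and 1530. They were thus higher in the diabetic library on days 1, 3 and 5 and lower on day 7, a day on which Slc2a6 was higher in both classes. Dendritic markers summed to 7326, 8008, 10637 and 16090, and 5473, 10152, 6805 and 10773 inside macrophage-like cells. Inside monocyte-like cells they summed to 2684, 9903, 14193 and 11863, and 2039, 10866, 13948.5 and 10004. In both classes they were higher in the diabetic library on days 1, 5 and 7 and lower on day 3. Dendritic-like cells held Slc2a6 at 34.8 to 125. The part of either marker set in the difference was not tested.

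Hif1a was higher in the diabetic library on most days. It was at 501, 454, 375 and 309 CPM in the diabetic and 389, 211, 311 and 222 in the control neutrophil-like cells, and at 544, 504, 570.4 and 499 against 486, 251, 470.4 and 385 in monocyte-like cells. In macrophage-like cells it was at 221, 278, 264 and 284 against 222, 201, 194 and 201. The diabetic library was higher on each day except day 1 of the macrophage-like cells, and groups did not overlap in monocyte-like cells. The log2 differences were 0.68 ± 0.223, 0.50 ± 0.148 and 0.39 ± 0.122 in the 3 classes, with edgeR adjusted p = 0.453, 0.424 and 0.388. The control day 3 library was the lowest in neutrophil- and monocyte-like cells, at day 3 ratios of 2.15 (2.01 to 2.32) and 2.01 (1.87 to 2.16), and with a day 3 library left out the monocyte-like log2 difference was as low as 0.31. In neutrophil-like cells the day 3 libraries also differed in make-up: the cluster led by Il23a, Il1a and Ccl3 was 28.6% of the diabetic and 7.63% of the control cells, and the cluster led by Cxcr2, Lrg1 and Csf3r 39.9% and 65.1%. Within the latter cluster alone Hif1a was at 542 and 231 on day 3. Over all libraries Hif1a ranged from 186 to 542 in that cluster and from 182 to 423 in the cluster led by Il23a, Il1a and Ccl3. The part of make-up in the day 3 difference was not tested.

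**Figure D3:**
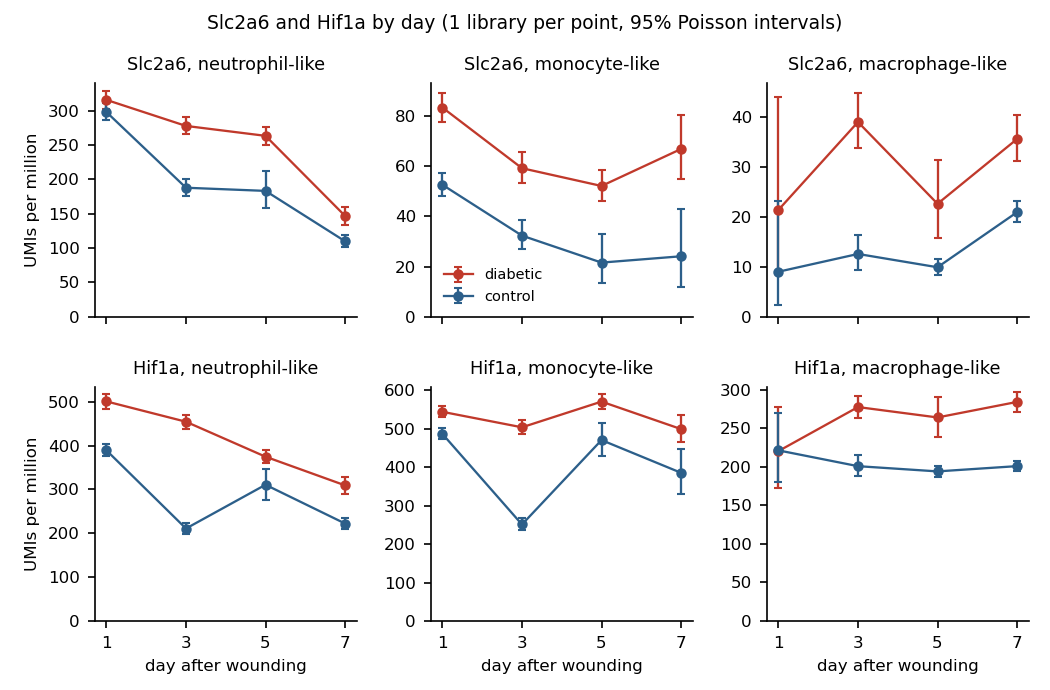
Slc2a6 (top) and Hif1a (bottom) in CPM by day in neutrophil-, monocyte- and macrophage-like cells, red for diabetic and blue for control, 1 library per point with 95% Poisson intervals for counting error only. The diabetic point lies above the control point on each day in each panel, except for Hif1a on day 1 in macrophage-like cells, at 221 and 222.

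Single enzymes differed in either direction without a call. Hk1, the constitutive hexokinase, was at 58.9, 64.7, 68.2 and 66.4 in the diabetic and 56.2, 53.3, 36.1 and 47.8 in the control neutrophil-like cells, and higher on each of the 4 days in monocyte- and macrophage-like cells too. Its log2 differences were 0.51, 0.47 and 0.43. Pfkp, the platelet-type phosphofructokinase, had 0.44, 0.34 and 0.42, and Pfkfb3 0.51, 0.47 and 0.54. In macrophage-like cells Pgk1 and Aldoa pointed down at -0.40 and -0.29. None of these passed the adjusted threshold in edgeR. On each of the 4 days the diabetic library was higher for 5 of 35 members in neutrophil-like cells (Slc2a6, Hk1, Pfkfb3, Ldha and Hif1a) and lower for 3 (Aldoa, Pfkfb4 and Eno1), beside 6.94% and 9.77% of 10385 genes. In monocyte-like cells 6 of 35 were higher (Slc2a6, Hk1, Pfkp, Bpgm, Mpc1 and Hif1a) and 4 lower (Slc2a8, Pfkl, Pfkfb2 and Pdha1), beside 7.85% and 10.3% of 10251 genes. In macrophage-like cells 3 of 36 were higher (Slc2a6, Hk1 and Pfkp) and 4 lower (Pfkfb2, Pgk1, Mpc2 and Pdk1), beside 7.68% and 9.85% of 11526 genes. Slc2a6 and Hk1 were the members on the higher side in all 3 classes. The share of all genes that did so was not counted, and the classes come from the same libraries. The enzyme sum did not follow, with a mean log2 ratio of diabetic to control of -0.13 (SD 0.177 over the 4 days, above 0 on 2) in neutrophil-like and -0.19 (SD 0.269, above 0 on 1) in macrophage-like cells, both within about 1 SD of 0.

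The next comparison asked which members changed over the days after wounding, with a single slope fitted to both groups together. A call therefore does not show that each group changed. In neutrophil-like cells 18 of 34 members passed in edgeR, 14 falling and 4 rising, but 44.3% of all 10227 genes did so in this class (23.1% up and 21.3% down), and the members' share is read against that. The median slope was -0.07 log2 per day over members and 0.01 over all genes. DESeq2 called 19, beside 46.1% of all genes, but with cells named singly from marker scores, in place of by cluster, edgeR called 1 of 31, beside 8.96%. These slopes are relative to the TMM scaling, which assumes that most genes hold still. With library size scaling the median gene rose by 0.18 per day in place of 0.01, a shift of 0.161, and 12 members were called, 10 up and 2 down, beside 49.8% and 5.28% of all genes, of which 6 were shared. The balance of the called members thus turned from mostly falling to mostly rising with the scaling.

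The members called as falling under both scalings were Slc2a3 and Slc2a6. Slc2a3 went from 271 and 339 CPM on day 1 to 102 and 119 on day 7 and fell by 0.40 ± 0.0906 log2 per day (edgeR adjusted p = 0.00388). Slc2a6 went from 316 and 298 to 147 and 110.0 and fell by 0.36 ± 0.0546 (edgeR adjusted p = 0.000537). On day 7 both genes were below their level of day 1 in both groups, though the control day 3 library held the highest Slc2a3 level of all, at 507. With library size scaling the slopes were -0.24 (adjusted p = 0.0135) and -0.19 (adjusted p = 0.00347, both edgeR). Slc2a3 was called in 21 of 22 alternatives (adjusted p 5.8e-07 to 0.18) and Slc2a6 in 20 of 22 (3.3e-09 to 0.0848), both being lost where cells were named singly from marker scores, and Slc2a6 also within the cluster of Cxcr2, Igkc and Csf3r described below.

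Hif1a (-0.28, edgeR adjusted p = 0.00136), Slc16a3 (-0.28, 0.00668) and Pfkfb4, which like Pfkfb3 sets fructose 2,6-bisphosphate (-0.28, 0.00296), also fell, although with library size scaling none of these was called. Pfkfb4 was at 18.5, 19.4, 14.9 and 12.1 in the diabetic and 18.6, 33.4, 17.0 and 12.6 in the control neutrophil-like cells. With Slc2a3 and Slc2a6, Hif1a and Pfkfb4 were called in 8 of 8 fits that left out 1 library. Slc2a1 (155, 152, 152 and 155, and 157, 206, 131 and 133), Pkm (1220.2, 1144, 1278 and 1136, and 1456, 1556, 957 and 1013), Pfkfb3 (279, 262, 304 and 248, and 201, 199, 244 and 192) and Hk1 fell by 0.17 to 0.23 per day relative to other genes, and none was called with library size scaling. Hk3 (43.1, 24.1, 49.4 and 22.0, and 42.0, 28.1, 28.1 and 26.4) fell by 0.26. Gapdh (845, 859, 937 and 898, and 974, 1166, 853 and 995), Gpi1 (154, 199.8, 112 and 164, and 122, 169, 182 and 187), Mpc1, the other pyruvate carrier subunit (20.3, 14.9, 14.1 and 16, and 17.1, 17.6, 35.1 and 20.4), and Pfkp (76.6, 115, 121 and 112, and 91.7, 102, 64.1 and 76.1) fell by 0.13 to 0.16 relative to other genes, and all 4 slopes turned to just above 0 with library size scaling.

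The 4 members that rose were scarce in neutrophil-like cells or had been lower there than in macrophage-like cells. Slc16a1 was at 4.02, 10.6, 7.69 and 26.5 CPM in the diabetic and 6.36, 12.1, 35.1 and 25.7 in the control libraries and rose by 0.22 per day (edgeR adjusted p = 0.0150). Aldoc was at 0.287, 3.59, 3.43 and 6.33, and 0.398, 4.23, 3.01 and 7.84, and rose by 0.35 (0.0370), and Slc2a8 rose by 0.34 (0.0164). Hk2 was at 46.4, 53.3, 61.2 and 179 in the diabetic and 39.9, 75.8, 93.2 and 129 in the control libraries and rose by 0.13 (0.0430). Over the alternatives Hk2 was called in only 8 of 22 (edgeR or DESeq2 adjusted p 0.00044 to 0.854), and its slope was reversed in 1. Slc16a1 was called in 15 of 22, Aldoc in 14 of 20 and Slc2a8 in 12 of 15. The day 7 library was the highest of its group for each of these except Slc16a1 in the control mice, and all 4 were called up with library size scaling as well. Not called were Aldoa (464 to 922 over the libraries), Eno1 (209 to 391), Ldha (308 to 499.6), Tpi1 (69.2 to 173), Pgk1 (67.9 to 102), Pgam1, phosphoglycerate mutase (9.19 to 30.1), Pfkl, the liver-type phosphofructokinase (15.2 to 32.7), Eno3 (2.25 to 12.6), Ldhb (0.398 to 9.02), Pfkm (0.327 to 3.65), Bpgm (0.663 to 3.65), Mpc2 (20.9 to 82.2), Pdha1 (8.22 to 32.1), Pdk1 (3.73 to 17.1), Egln3 (43.1 to 148) and Bnip3 (11.5 to 34.4). Adm, which encodes the vasodilator peptide adrenomedullin (53 UMIs in neutrophil-like cells), and Pfkfb2 (47) did not pass the filter on low counts for the trend, and Pdk4, another pyruvate dehydrogenase kinase, had 17 UMIs in all cells.

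**Figure D4:**
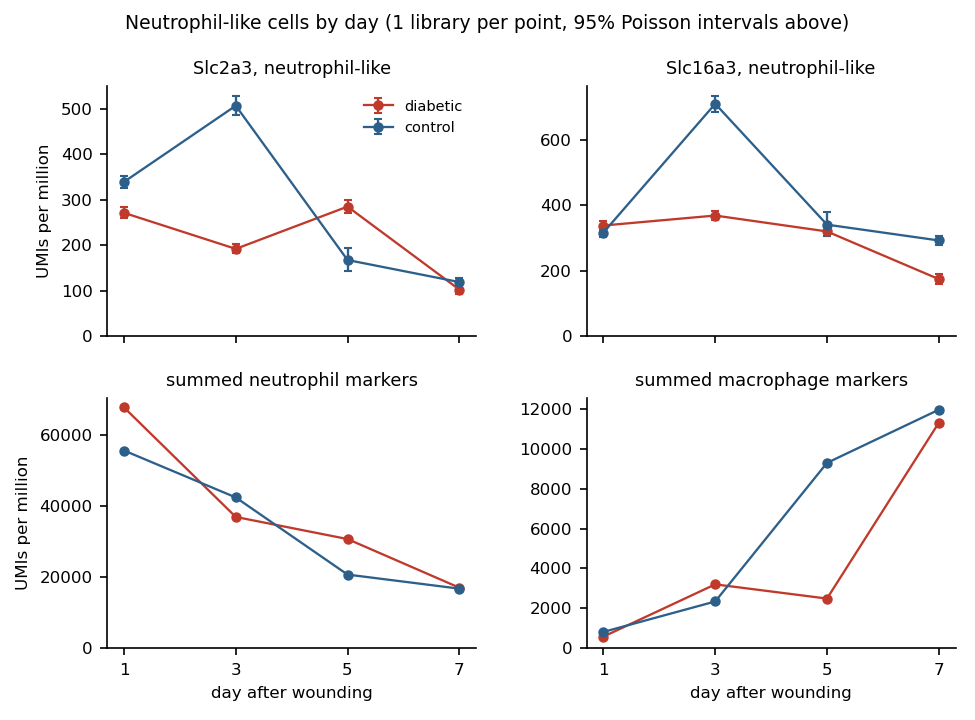
CPM in neutrophil-like cells by day, red for diabetic and blue for control with 95% Poisson intervals, for Slc2a3 and Slc16a3 (top) and for the summed neutrophil and macrophage markers (bottom). Slc2a3 is at 271 and 339 on day 1 and at 102 and 119 on day 7, while neutrophil markers go from 67872 and 55718 to 17024 and 16746 and macrophage markers from 573 and 809 to 11319 and 11979.

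The content of the neutrophil-like class changed over the same days. The 10 neutrophil markers summed to 67872, 36979.9, 30742 and 17024 CPM in the diabetic and 55718, 42482, 20719 and 16746 in the control libraries. The 11 macrophage markers summed to 573, 3200, 2485 and 11319, and 809, 2340, 9307 and 11979, with none of the 11 at 0 in any library, and 95 ribosomal protein genes went from 12363 and 11084 to 44769 and 56289. From day 1 to day 7 dendritic markers went from 1034 and 797 to 8997 and 7025, and T cell markers from 32.5 and 26.8 to 320 and 226. Fibroblast markers went from 24.7 and 23.5 to 309 and 665, and the heat-shock gene Hspa1a from 26.7 and 37.5 to 250 and 680. The cluster of Cxcr2, Igkc and Csf3r with a median of 1983 UMIs per cell was 5.02% and 3.92% of neutrophil-like cells on day 1 and 67.7% and 90.6% on day 7. Within each of the 3 clusters with at least 20 cells in all libraries, edgeR called 7 of 27, 5 of 29 and 1 of 28 members, beside 31%, 29.4% and 5.26% of all genes, and Slc2a3 fell in each of them, by 0.34 per day in the last (adjusted p = 0.0322). Per 1000 neutrophil-marker UMIs, Slc2a3 was 4.00, 5.19, 9.27 and 6.01 in the diabetic and 6.09, 11.9, 8.08 and 7.09 in the control libraries, and Slc2a6 4.65, 7.52, 8.57 and 8.63, and 5.35, 4.42, 8.85 and 6.57. On that scale neither was lower on day 7 than on day 1, so that the direction of both depends on what they are measured against. Without the diabetic day 7, control day 1 or control day 7 library the count of called members was 7, 8 and 6 of 35, beside 23.3%, 27.3% and 24.5% of all genes, and without the diabetic day 5 library 21, beside 48.2%.

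In monocyte-like cells 1 of 36 members passed the trend in edgeR, beside 0.754% of 9947 genes. Egln3, whose promoter is shown above, was at 21.8, 49.8, 39.3 and 119.6 CPM in the diabetic and 27.5, 45.7, 95.5 and 91.9 in the control libraries. Each later library was above both day 1 libraries, and the slope was 0.34 ± 0.054 log2 per day (edgeR adjusted p = 0.0211). Bnip3 was at 27.4, 44.8, 41.8 and 87.4, and 36.2, 28.3, 61.6 and 52.5, and Pdk1 at 7.44, 15.3, 15.7 and 31.0, and 14.2, 23.1, 19.5 and 28.5. Their slopes of 0.19 and 0.23 had edgeR adjusted p = 0.119 and 0.0959, while DESeq2 called both beside Egln3, and 2.89% of all genes. An unadjusted p under 0.05 was reached by 7 of the 36 members, beside 13.5% of all genes. Slc2a6, which fell in neutrophil-like cells, had a slope of -0.13 here (edgeR adjusted p = 0.254), and that difference between classes was not tested. The day 7 libraries held 197 and 53 monocyte-like cells, and Egln3 was called in 14 of 19 alternatives (adjusted p 6.9e-06 to 0.183). It was lost without the diabetic day 1 (edgeR adjusted p = 0.183), diabetic day 7 (0.168) or control day 1 library (0.0637), and also with Leiden resolution 0.4 (0.107) and with cells named singly from marker scores (0.152). Macrophage markers inside monocyte-like cells summed to 3813, 9589, 6676 and 8217, and 5104, 7493, 11993 and 10549, and so were also lowest on day 1 in both groups, while Egln3 in macrophage-like cells was at 6.13 to 43.4, below its monocyte-like level in 7 of 8 libraries. Dendritic markers in the same cells summed to 2684, 9903, 14193 and 11863, and 2039, 10866, 13948.5 and 10004. T cell markers summed to 66.4, 75.2, 144 and 337, and 60.3, 97.9, 65.7 and 287. Egln3 was at 9.61 to 39.0 in dendritic-like and at 46.0 to 168 in T cell-like cells. The part of these transcripts in the slope was not tested.

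**Figure D5:**
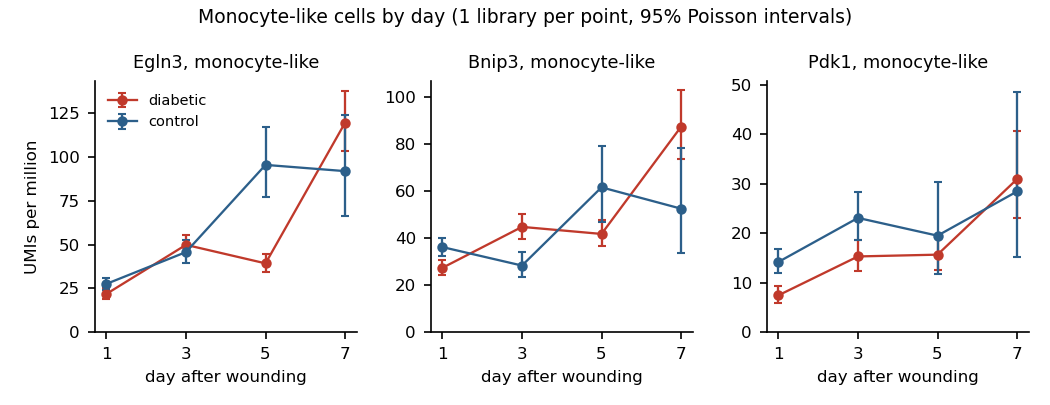
Egln3, Bnip3 and Pdk1 in CPM by day in monocyte-like cells, red for diabetic and blue for control, 1 library per point with 95% Poisson intervals for counting error only. Egln3 is at 21.8 and 27.5 on day 1 and at 119.6 and 91.9 on day 7, and Bnip3 and Pdk1 are also highest on day 7 in the diabetic libraries.

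In macrophage-like cells 0 of 36 members had a trend over days in edgeR, beside 0.915% of 10487 genes, and DESeq2 called 0. An unadjusted p under 0.05 was reached by 3 of the 36 members, beside 10.5% of all genes, and so by no larger a share. All 3 had positive slopes, namely Hk2 (0.11 log2 per day), Slc2a1 (0.10) and Pfkp (0.09). Hk2 was at 123, 134, 169.7 and 227 in the diabetic and 151, 114, 154 and 170.2 in the control libraries, so that day 7 was highest in both groups. Whether trends differed between the groups was tested in neutrophil- and macrophage-like cells, and edgeR and DESeq2 called 0 of 35 and 0 of 36 members, as well as 0% and 0% of the 10861 and 10981 genes in edgeR. An unadjusted p under 0.05 was reached by 4 and 3 members, beside 2.21% and 2.14% of all genes. The smallest was for Egln3 in neutrophil-like cells, at 63.5, 85.9, 148 and 111 in the diabetic and 72.2, 98.2, 48.1 and 43.1 in the control libraries, a slope higher by 0.42 ± 0.126 log2 per day in diabetic mice (edgeR unadjusted p = 0.00470). The diabetic library was the higher one on days 5 and 7 and the lower one on days 1 and 3. In macrophage-like cells it was Pfkfb3, at 260.5, 159, 164 and 176 in the diabetic and 90.4, 104, 123 and 176 in the control libraries, a slope lower by -0.23 (edgeR unadjusted p = 0.00717).

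Genes of the same and of neighbouring pathways, from lists fixed beside the members, were counted in the same edgeR tests. In the neutrophil-like trend 7 of 25 other hypoxia genes fell and none rose, among them Ddit4, an inhibitor of mTORC1 (-0.34 log2 per day, adjusted p = 0.0015), Kdm3a, a histone demethylase (-0.19), and Nos2, inducible nitric oxide synthase (-0.41). Of 77 oxidative phosphorylation genes 40 rose and none fell, among them the complex I genes Ndufa10 (0.31), Ndufa12 (0.34) and Ndufc2 (0.35). Macrophage markers in the same cells went from 573 and 809 CPM on day 1 to 11319 and 11979 on day 7, macrophage-like cells themselves held 9189 to 12228 CPM of the oxidative phosphorylation genes, and the part of these transcripts in the rise was not tested. Of 8 pyruvate dehydrogenase genes 3 rose (Dlat 0.32, Pdk2 0.40 and Pdp2 0.29). Of 12 glycogen genes 3 fell and 1 rose, with Pygl, the liver-type glycogen phosphorylase, at -0.31 and Pygb, the brain-type one, at 0.37. Of 7 pentose phosphate genes 1 fell (Taldo1 -0.23) and 1 rose (Pgls 0.31), and of 10 other glycolysis and glucose genes 4 fell and 3 rose, among them Arrdc4 (-0.28), Slc16a7 (0.37) and G6pc3 (0.30). Each of these is read against the 23.1% and 21.3% of all genes called up and down in that test, and against the shift of 0.161 between scalings. No gene of these lists was called in any other test. Between the groups, where 8.73%, 7.71% and 8.75% of all genes did so, 4 of 27 other hypoxia genes reached an unadjusted p under 0.05 in neutrophil-like, 3 of 27 in monocyte-like and 6 of 27 in macrophage-like cells, with Nos2 at log2 differences of 1.37, 1.73 and 2.74 (edgeR adjusted p = 0.503, 0.322 and 0.160). Over days 10 of 27 did so in monocyte-like cells, beside 13.5% of all genes, with Vegfa, the vascular growth factor, at 0.19, Hilpda, a lipid droplet protein, at 0.12 and P4ha2, a collagen prolyl hydroxylase, at 0.54 log2 per day (edgeR adjusted p = 0.0959, 0.119 and 0.119). Between the groups 7 of 78, 4 of 77 and 10 of 78 oxidative phosphorylation genes reached that p in these classes. Pentose phosphate genes gave 0, 0 and 2 of 7, glycogen genes 2, 0 and 0 of 12, and pyruvate dehydrogenase genes 2, 0 and 0 of 8. Other glycolysis and glucose genes gave 1 of 10, 2 of 10 and 1 of 11. Over days in monocyte-like cells these lists gave 7 of 77, 2 of 7, 1 of 12, 0 of 8 and 0 of 10.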

How the data were processed

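UMI counts per gene and cell were deposited by the authors as 1 table per library, made, per the methods, with STAR and UMI-tools from reads cleaned with fastp (version 0.20.1 in the submitters' processing notes). The labels name mm9 as the build and the methods an Ensembl annotation, and the labels and methods name different capture platforms. The tables hold no coordinates, and barcodes had been recoded within each library, so that barcodes shared between libraries could not be counted. Every number below was computed from these counts.

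Cells with more than 200 genes and under 20% mitochondrial UMIs were kept (3801 barcodes removed), and mitochondrial genes were then dropped. Cells were clustered with scanpy 1.11.5 (Python 3.11.15, numpy 2.4.6, pandas 2.3.3, scipy 1.17.1, scikit-learn 1.9.0) on 2000 variable genes without the members, 10 components, 30 neighbours and Leiden resolution 0.8, and clusters were named from marker lists. A cluster of 3452 shallow cells led by Gm26917 and Malat1 stayed unnamed. Scrublet called 68 of 35158 cells (0.193%), under the 0.5% taken as a working call, so doublets stayed in. Counts were summed per library and class with at least 20 cells and tested with edgeR 4.0.16 in R 4.3.3 (quasi-likelihood, TMM, filterByExpr, Benjamini-Hochberg over all genes tested, threshold 0.05), with day as a block for the group effect (3 residual degrees of freedom), group as a covariate for the linear trend per day (5), and group by day (4), and with DESeq2 1.42.0 as an alternative. Intervals (95%, exact Poisson or conditional binomial) cover counting error only. Ratios between classes set counts under 3 to 3 and left out libraries where both classes were below that, and shares of all genes took genes with at least 50 UMIs.

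Named are all 37 members by role, with values in every library for those called in a test and for up to 5 each way with the most uneven neutrophil-like to macrophage-like ratio, and up to 3 genes per other list with the smallest p. The members and lists were chosen with earlier results of these data known. Promoter windows came from RefSeq (GRCm38.p6). The tests in neutrophil- and macrophage-like cells were run on simulated data first, and those in monocyte-like cells were not.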

Additional observations from a re-analysis of the deposited data

Results flagged for a closer look

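Of 52 sets of 4 libraries examined (1 gene or the enzyme sum in 1 class and group), 4 held a library far from the other 3. Chance gives about 1 in 20 for repeats of 1 condition. The libraries of a set are different days, and most sets are of members called for a trend over days, so that this rate does not apply. In neutrophil-like cells Hk2 was at 179 CPM in the diabetic day 7 library against 46.4 to 61.2 on the other days, and Slc2a8 at 4.22 in the same library against 0.718 to 1.15. Hk3 was at 42.0 in the control day 1 library against 26.4 to 28.1, and Slc16a3 at 710.3 in the control day 3 library against 292 to 341. The diabetic day 7 library held 774 neutrophil-like cells, and 11319 CPM of macrophage markers in them, against 573 to 3200 on the other diabetic days. The part of these transcripts in the Hk2 and Slc2a8 levels was not tested. No member moved in opposite directions in every sample of different classes.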

How the results depend on the processing

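For the enzyme ratios and the single genes, the direction was the same under each alternative run except for 7 neutrophil-like slopes. With library size scaling (added after the data were seen) the slope became 0.0013 log2 per day for Gapdh, 0.033 for Gpi1, 0.011 for Mpc1 and 0.0038 for Pfkp, within cluster 2 alone it became 0.091 for Gpi1, and with cells named singly from marker scores -0.018 for Hk2 and 0.017 for Pfkfb3. Per 1000 neutrophil-marker UMIs, a scale given without a test and not among these alternatives, Slc2a3 and Slc2a6 were in addition higher, not lower, on day 7 than on day 1 in both groups. The count of members called between the groups was 2 with no filter on low counts in both monocyte- and macrophage-like cells, 1 with DESeq2 and with Leiden resolution 1.6 in macrophage-like cells, and 0 to 1 and 0 to 2 with 1 library left out. The neutrophil-like trend count of 18, with 14 down and 4 up, turned to 10 up and 2 down with library size scaling, and became 1 with cells named singly, 7, 5 and 1 within clusters 1, 2 and 5, and 6 to 21 with 1 library left out. The monocyte-like trend count of 1 became 3 with DESeq2 and with no filter, 0 with Leiden resolution 0.4 and with cells named singly, and 0 to 1 with 1 library left out. The median log2 enzyme ratio of neutrophil-like to macrophage-like cells, 0.22, became 0.44 and 0.049 with Leiden resolutions 0.4 and 1.6 and 0.018 with cells named singly. The cause of these moves was not tested. Replicates share only the day, so the day served as the block of the group fits, and without the block the members called in neutrophil-, monocyte- and macrophage-like cells were 0, 0 and 0 between the groups. The trend fits hold no day block, and without their group term they called 17, 1 and 0. Of the other alternatives for single genes that were listed before analysis, 340 gave the same call, 68 lost it and 11 gained it, and of those added later, 58 gave the same and 44 lost it. With 1 library per group and day, variation between mice of a day was not measured. Among the tested classes, sets of under 100 cells (both day 1 macrophage-like and the control day 7 monocyte-like sets) limit single-day ratios. Outside the tests, osteoclast-like sets of 33 to 43 cells, NK cell-like sets of 22 to 88 cells and the mast cell-like sets limit the values given.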

Other observations

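T cell-like cells, which were in no test, held Hif1a at 536, 412, 566 and 657 CPM in the diabetic and 536, 375, 379.7 and 499 in the control libraries. The diabetic library was the higher one on days 3, 5 and 7, and level on day 1. Their enzyme sum ranged from 3619.5 to 5511 and their hypoxia gene sum from 497 to 834, above the 149 to 252 of dendritic-like cells without overlap. In T cell-like cells the 3 fructose 2,6-bisphosphate genes summed to 35.6 to 105, below the 176 to 310.2 of dendritic-like cells, again without overlap.

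Among neutrophil-like clusters, the one led by Il23a, Il1a and Ccl3 held a median of 1015 CPM of Aldoa (480.4 to 1436 over libraries) and 592 of Ldha (378 to 774), against 644 (441 to 1062) and 317 (193 to 479) in the cluster led by Cxcr2, Lrg1 and Csf3r. Slc16a3 had the opposite order, with medians of 180 (137 to 231) and 507 (194 to 881). These ranges overlap, and the clusters are described without a test.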
